A study of Homo sapiens with 11 samples.

Results

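The genes HMGCS1, SQLE, MSMO1, SC5D, IDI1, INSIG1, SREBF1 and SREBF2, which belong to cholesterol synthesis and its control by the sterol regulatory element binding proteins (SREBPs), were chosen by their symbols. All 8 were found among the 28252 genes of the RT4 RNA-Seq tables and among the 26237 genes of the BEAS-2B H3K4me3 promoter tables. RT4 is a non-invasive human bladder cancer line, and BEAS-2B is an immortalized human bronchial epithelial line. Untreated (UT) cells were compared with nickel-exposed (Ni-E) cells, kept in 100 μM NiCl2 for 6 weeks, and with nickel-washed-out (Ni-W) cells, which had the same exposure and were then grown without nickel. The washout of the RT4 cells lasted 2 weeks. The BEAS-2B Ni-W cells were a single population, expanded from a colony for more than 6 months after exposure, so that exposure, time in culture and clone cannot be told apart in these cells. A washout of 2 weeks also stands in the labels for both lines. All cells were grown in medium with fetal bovine serum. RNA-Seq had 2 libraries per group, described in the methods as biological replicates. H3K4me3 ChIP-Seq had 1 library per group, although the methods give 2 biological replicates. In the GENCODE annotation of GRCh38, HMGCS1 lies at chr5:43287470-43313512, SQLE at chr8:124998497-125022283, MSMO1 at chr4:165327667-165343164, SC5D at chr11:121292681-121313410 and IDI1 at chr10:1039152-1049119. INSIG1 lies at chr7:155297776-155310235, SREBF1 at chr17:17810399-17837002 and SREBF2 at chr22:41833105-41907306.

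The mevalonate pathway builds cholesterol from acetyl-CoA in the endoplasmic reticulum. When sterols are scarce, the escort protein SCAP carries SREBPs to the Golgi, where they are cleaved, and the released factors enter the nucleus and switch on the enzymes of the pathway and INSIG1. When sterols are plentiful, INSIG proteins hold SCAP in the endoplasmic reticulum, so that INSIG1 is both a target and a brake of the pathway. SREBF2 encodes SREBP-2, which acts mainly on cholesterol genes, and SREBF1 encodes the SREBP-1 isoforms, which act on fatty acid genes among others. H3K4me3 is a histone mark found at the promoters of active genes.

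RefSeq promoter sequences (GRCh38.p14) were at hand for 7 of the 8 genes. In the 250 bases before the start, the core of the sterol regulatory element, TCACNCCAC on either strand, was found in 1 of the 7 genes, SREBF2, and in 0.883% of all 35116 promoters. In SREBF2 it lay 133 to 125 bases before the start, and a CCAAT box on the opposite strand followed it 106 to 102 bases before the start. CCAAT boxes were found in 6 of the 7 genes (all but SREBF1) and in 32% of all promoters. The E-box CACGTG was found in INSIG1 and SC5D and in 6.34% of all promoters. No match of these motifs in the 7 genes shared bases with a match of another, although CCAAT matches on both strands overlapped at 1 start of IDI1. The absence of a match says only that these letters are not in this window. The SREBF2 sequence is shown for its sterol regulatory element. Those of INSIG1 and SREBF1 were added after the values were seen, since both genes had the lowest values after washout. All 3 run 5′ to 3′ along the gene and end before the annotated transcript. Capitals mark the sterol element in SREBF2 and the CCAAT box, read as ATTGG, in SREBF2 and INSIG1.
SREBF2, chr22:41832922-41833030, plus strand: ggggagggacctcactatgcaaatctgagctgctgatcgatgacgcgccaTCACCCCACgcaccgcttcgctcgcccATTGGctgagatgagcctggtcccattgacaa
INSIG1, chr7:155297698-155297775, plus strand: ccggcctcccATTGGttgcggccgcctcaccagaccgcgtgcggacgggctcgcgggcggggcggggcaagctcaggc
SREBF1, chr17:17837003-17837136, minus strand: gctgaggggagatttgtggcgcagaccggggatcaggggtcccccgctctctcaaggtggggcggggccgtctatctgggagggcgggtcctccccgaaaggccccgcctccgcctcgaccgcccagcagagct
The promoters of the 7 genes were rich in G and C, at 66% to 78.4% of the bases over their 11 listed starts, beside a median of 58% for all promoters.

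Depth in RT4 cells was 17.1 to 18.3 M estimated counts in the replicate 1 libraries and 25.7 to 27.7 M in the replicate 2 libraries. All 11 urothelial and all 6 epithelial marker genes had a median of at least 1 TPM. The urothelial markers summed to 1706 to 1719 TPM in UT, 1345 to 1412 in Ni-E and 1744 to 1798 in Ni-W cells, but not all of them followed the sum. KRT13 had 34.5 and 37.4 TPM in UT and 6.45 and 6.48 in Ni-W cells, KRT20 had 11.1 and 11.3 TPM in UT and 1.59 and 1.37 in Ni-W cells, and UPK3B had 293 and 313 TPM in UT and 368 and 420.5 in Ni-W cells. The 5 immune markers summed to 7.40 to 8.06 TPM in UT, 10.9 to 13.3 in Ni-E and 13.4 to 13.7 in Ni-W cells. CD68 made up nearly all of this sum, at 7.30 and 7.33 TPM in UT and 13.3 and 13.4 TPM in Ni-W cells. The other 4 were under 1 TPM, and 2 of them were at 0 in all libraries. The part of these shifts in the results below was not tested. The BEAS-2B library of UT cells held 28.4 M reads, that of Ni-E cells 37.5 M and that of Ni-W cells 29.9 M. In these libraries 4 or 5 of the 6 epithelial marker promoters had at least 1 RPKM. So had 2 of the 6 mesenchymal, 4 of the 11 urothelial, 1 of the 5 immune and 0 of the 3 endothelial marker promoters in each library. Of the 4 lung lineage markers, 2 reached that level in UT and in Ni-E cells, but 1 after washout.

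All 8 genes were expressed in RT4 cells. On the TPM scale, which is per transcript length, SREBF2 had the highest level, with a median of 126 TPM over the 6 libraries (range 93.4 to 161). SQLE (median 115 TPM, 85.7 to 163) and MSMO1 (110 TPM, 94.3 to 121) followed. SREBF1 had a median of 82.5 TPM (75.2 to 96.6), INSIG1 of 67.5 TPM (39.8 to 101), HMGCS1 of 61.3 TPM (35.9 to 83.5) and IDI1 of 50.7 TPM (34.2 to 65.0). Among these 7, neighbours in this order overlapped in their ranges, while the ranges of SREBF2, SQLE and MSMO1 lay above those of HMGCS1 and IDI1. SC5D was the lowest, with a median of 17.9 TPM (12.7 to 29.1), and its highest library lay below the lowest library of the other 7 genes.

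By the rule of a 1.5-fold change and an adjusted p below 0.05, 0 of the 8 genes were called in any comparison in RT4 cells. This was read against 2.17% of the 14502 tested genes for Ni-E against UT, 0.6% for Ni-W against UT and 0% for Ni-W against Ni-E. All 8 were tested. The last comparison had 0 calls over all genes in edgeR without a block, 808 genes at an unadjusted p below 0.05 and 139 calls in DESeq2. Libraries with the same replicate number deviated together, and with the replicate number as a block 12.6%, 8.57% and 4.52% of the genes were called, again with 0 of the 8. The values below are therefore given under both fits, with CPM, the counts scaled to the depth of the library, for each library. In bulk RNA, fewer cells of a type and less RNA per cell cannot be told apart.

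**Figure D1:**
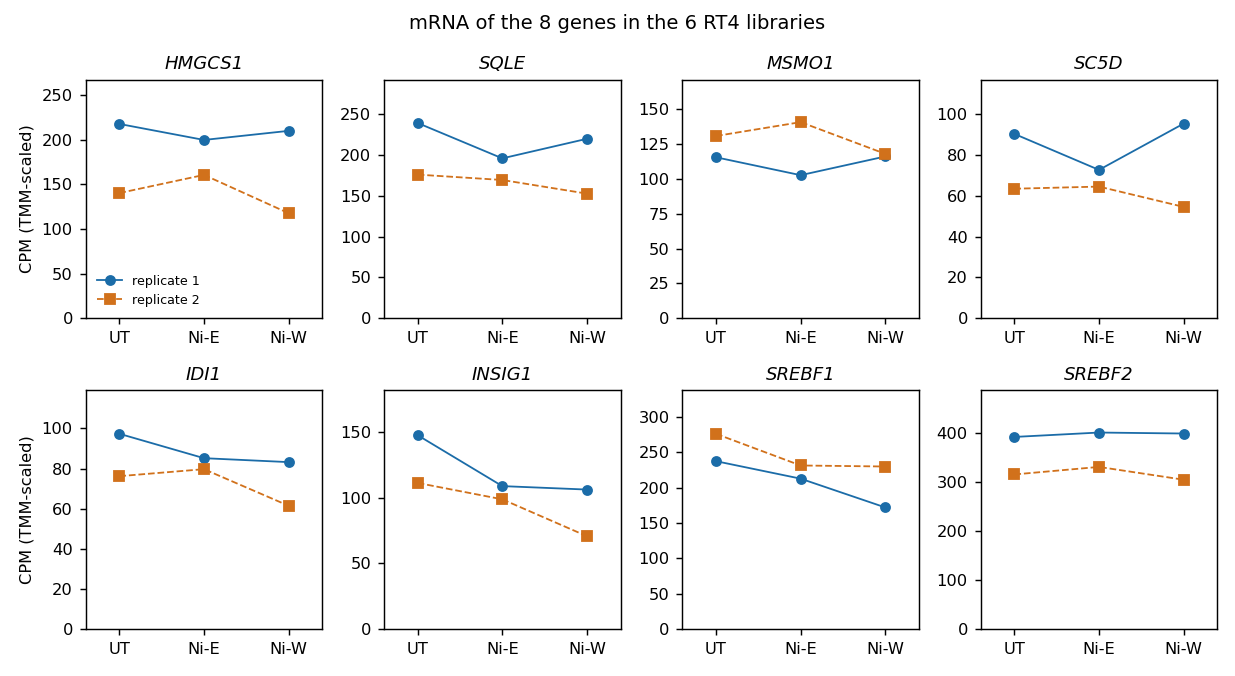
CPM after TMM scaling (y axis, from 0) of the 8 genes in the UT, Ni-E and Ni-W libraries of RT4 cells (x axis), with circles and solid lines for replicate 1 and squares and dashed lines for replicate 2. Replicate 2 lay below replicate 1 in all 3 groups for 6 genes and above it for MSMO1 and SREBF1, and INSIG1 and SREBF1 were lower in Ni-W than in UT cells in both replicates.

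The 5 enzymes had log2 fold changes of -0.27 to 0.04 against UT with the block, and none passed the test. HMGCS1, the cytosolic HMG-CoA synthase of the early mevalonate pathway, had 218 and 140 CPM in the 2 UT libraries, 200 and 161 CPM in Ni-E and 210 and 118 CPM in Ni-W cells. The 3 groups overlapped, and the replicates of a group stood further apart than the groups. Its log2 fold change was 0.01 for Ni-E against UT (95% CI -0.85 to 0.87) and -0.13 for Ni-W against UT (-0.99 to 0.73), and with the block 0.04 (-0.23 to 0.32) and -0.15 (-0.42 to 0.13).

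IDI1, the isopentenyl diphosphate isomerase, makes the allylic building block of all isoprenoids. It had 97.3 and 76.2 CPM in UT, 85.2 and 79.7 CPM in Ni-E and 83.2 and 61.4 CPM in Ni-W cells. Both Ni-W libraries were below the UT library of the same number, while the groups overlapped. Its log2 fold change for Ni-W against UT was -0.26 without the block (95% CI -0.82 to 0.29, adjusted p = 0.999 in edgeR) and -0.27 with it (-0.53 to -0.01, adjusted p = 0.183).

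SQLE, the squalene epoxidase, catalyses the first oxygenation on the way to sterols and is a rate-limiting step of the late pathway. It had 239 and 176 CPM in UT, 196 and 170 CPM in Ni-E and 220 and 153 CPM in Ni-W cells. All 4 libraries of nickel-treated groups were below the UT library of the same number, but the groups overlapped. With the block, its log2 fold change was -0.17 for Ni-E against UT (95% CI -0.40 to 0.06) and -0.16 for Ni-W against UT (-0.39 to 0.07).

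MSMO1, the C-4 methylsterol oxidase, had 116 and 131 CPM in UT, 103 and 141 CPM in Ni-E and 116 and 118 CPM in Ni-W cells. SC5D, the sterol C5-desaturase of the late pathway, had 90.4 and 63.5 CPM in UT, 72.7 and 64.5 CPM in Ni-E and 95.4 and 54.6 CPM in Ni-W cells. The groups overlapped for both genes, and the direction differed between the replicates. With the block, the log2 fold change for Ni-W against UT was -0.07 for MSMO1 (95% CI -0.33 to 0.19) and -0.06 for SC5D (-0.38 to 0.26). For all 5 enzymes, the intervals with the block lay within a 1.5-fold change in either direction in all 3 comparisons.

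INSIG1 had the lowest values of the 8 genes relative to UT. It had 148 and 111 CPM in UT, 109 and 98.7 CPM in Ni-E and 106 and 70.6 CPM in Ni-W cells. Every nickel-treated library was below both UT libraries. Its log2 fold change for Ni-W against UT was -0.55 (95% CI -1.19 to 0.09, adjusted p = 0.684 in edgeR) without the block and -0.56 with it (-0.83 to -0.29, adjusted p = 0.0126 in edgeR). For Ni-E against UT it was -0.32 without the block (adjusted p = 0.849) and -0.30 with it (-0.57 to -0.03, adjusted p = 0.119). On the TPM scale the UT and Ni-W groups overlapped, with 101 and 63.1 TPM in UT and 78.3 and 39.8 TPM in Ni-W cells.

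SREBF1 was the other gene whose groups did not overlap. It had 238 and 276 CPM in UT, 213 and 232 CPM in Ni-E and 172 and 230 CPM in Ni-W cells. On the TPM scale, too, both UT libraries (96.6 and 93.5 TPM) were above the Ni-E (83.5 and 81.5 TPM) and Ni-W libraries (75.2 and 77.4 TPM). Its log2 fold change for Ni-W against UT was -0.35 without the block (95% CI -0.85 to 0.14, adjusted p = 0.818 in edgeR) and -0.36 with it (-0.59 to -0.13, adjusted p = 0.0456 in edgeR). For Ni-E against UT it was -0.21 under both fits (adjusted p = 0.908 without and 0.204 with the block).

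SREBF2 lay close to its UT level in both groups. It had 391 and 315 CPM in UT, 400 and 330 CPM in Ni-E and 398 and 304 CPM in Ni-W cells. The replicates of a group stood apart and the groups lay on top of each other. With the block its log2 fold change was 0.05 for Ni-E against UT (95% CI -0.15 to 0.25) and -0.01 for Ni-W against UT (-0.21 to 0.19). Whether SREBF1 and SREBF2 differed in their response was not tested.

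Under the block and with the adjusted p alone, a rule added after the values were seen, 2 of the 8 genes, INSIG1 and SREBF1, fell in Ni-W against UT cells, beside 4.18% of the tested genes that were lower by this rule. The count was 0 of 8 when either UT library was left out. The adjusted p of INSIG1 was then 0.311 without replicate 1 and 0.198 without replicate 2, and that of SREBF1 0.719 and 0.590. Over all tested genes, too, fewer passed for Ni-W against UT without a UT library and more without any other library. INSIG1 and SREBF1 both passed under DESeq2, other size factors and other filters with the block. Without Ni-W replicate 1 the log2 fold change was -0.23 for SREBF1, -0.71 for INSIG1, -0.36 for IDI1 and -0.32 for HMGCS1. INSIG1 was then past 1.5-fold. Which of the 8 genes passed changed with the library left out. By the same rule, 0 of 8 passed for Ni-E against UT (17.8% of the tested genes) and for Ni-W against Ni-E (5.88%) with all 6 libraries. In these 2 comparisons, too, the genes that passed changed with the library left out, as did their number over all tested genes. With the block and 1 library left out, INSIG1 ran from -0.48 to -0.13 for Ni-E against UT and SREBF1 from -0.30 to -0.11. For Ni-W against Ni-E, INSIG1 ran from -0.44 to -0.08, SREBF1 from -0.28 to -0.01 and HMGCS1 from -0.40 to 0.02. Groups that do not overlap were common over all genes, at 39.6% for Ni-E against UT, 29.2% for Ni-W against UT and 25.4% for Ni-W against Ni-E, beside 2, 2 and 0 of the 8 genes. All 8 genes had a log2 fold change below 0 for Ni-W against UT without the block, as had 7231 of the 14502 tested genes. Their median was -0.14 beside 0.00 over all tested genes. Within replicate 1, the difference in log2 CPM was above 0 for MSMO1 (0.007), SC5D (0.078) and SREBF2 (0.025) and below 0 for the other genes. Within replicate 2 it was below 0 for all 8. For Ni-E against UT and for Ni-W against Ni-E, 6 of 8 were below 0, with medians of -0.12 and -0.10. These comparisons share libraries and are not independent.

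**Figure D2:**
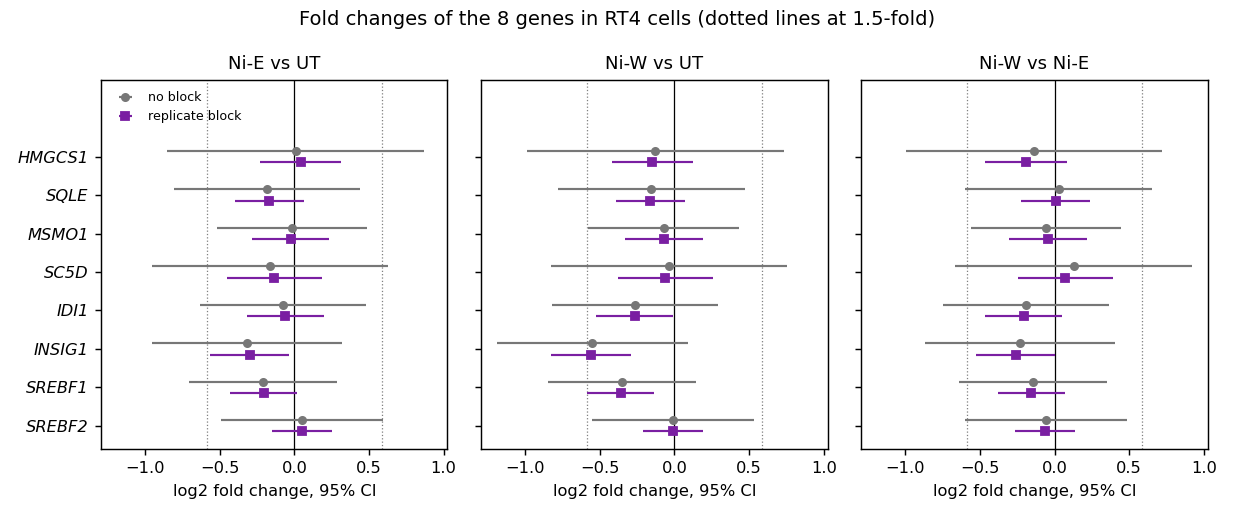
Log2 fold changes (x axis) of the 8 genes (y axis) in the 3 comparisons of RT4 cells, with 95% confidence intervals, without a block (grey circles) and with the replicate block (purple squares), and dotted lines at a 1.5-fold change. The intervals narrow with the block, and for Ni-W against UT those of INSIG1, SREBF1 and, narrowly, IDI1 lie below 0.

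The 8 genes also split by replicate. In the fit with the group as a term, replicate 2 was lower than replicate 1 by an adjusted p below 0.05 in edgeR for 6 of the 8 genes, beside 25.2% of all tested genes. HMGCS1 fell by 0.59 on the log2 scale (SE 0.10), SC5D by 0.50 (SE 0.12), SQLE by 0.39 (SE 0.09), INSIG1 by 0.38 (SE 0.10), SREBF2 by 0.33 (SE 0.07) and IDI1 by 0.30 (SE 0.10). All 6 were lower in replicate 2 in 3 of 3 groups. SREBF1 was higher in replicate 2, with a log2 difference of 0.25 (SE 0.08, adjusted p = 0.0288 in edgeR), as were 24.1% of all tested genes. MSMO1 had a log2 difference of 0.22 (adjusted p = 0.0812) and was also higher in 3 of 3 groups.

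Over all tested genes the replicate difference went with transcript length, from a median log2 difference of 0.56 below 1 kb to -0.41 from 6 kb. HMGCS1, SREBF2 and SC5D, with mean transcript lengths of 5.31, 5.25 and 6.86 kb, lay in length classes whose medians were -0.31, -0.31 and -0.41. SQLE and INSIG1, with 2.96 and 2.95 kb, lay below the lower quartile of their length class, whose median was 0.12. IDI1, with 3.004 kb, lay between the lower quartile and the median of its class, which was -0.06. SREBF1, with 4.83 kb, lay above the upper quartile of its class. Among the other sterol genes, EBP, a sterol isomerase of the late pathway with a transcript of 1.13 kb, was higher in replicate 2 by a log2 difference of 0.69. The part of transcript length in the values of the 8 genes was not tested.

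**Figure D3:**
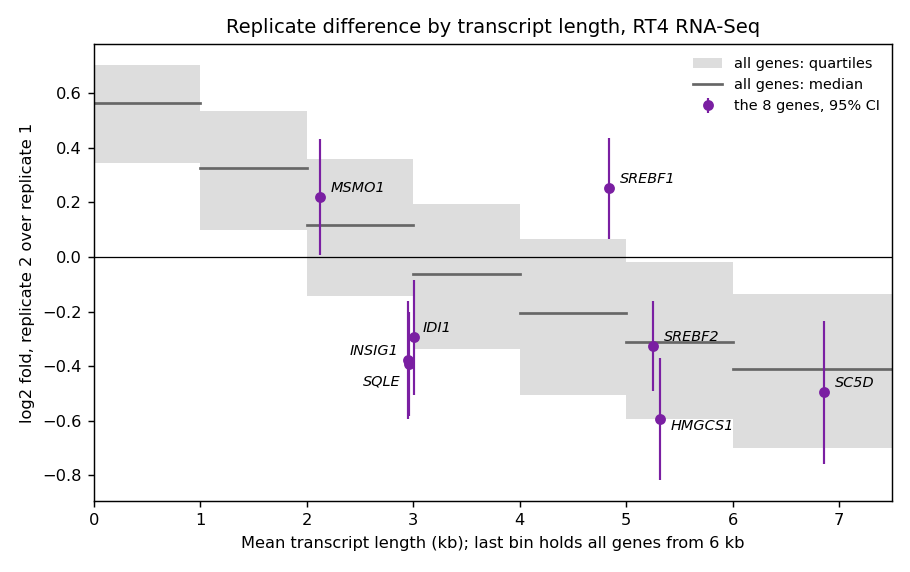
Log2 fold of replicate 2 over replicate 1 (y axis) against mean transcript length in kb (x axis) in RT4 RNA-Seq, with the 8 genes as purple points and 95% confidence intervals, and the median and quartiles of all tested genes per length class as grey lines and bands. The grey medians fall from 0.56 to -0.41, and SREBF1 lies above and SQLE and INSIG1 below the band of their class.

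The other genes of the pathway were read from 5 lists with 48 genes beyond the 8, of which all 48 were tested. For Ni-E against UT, 1 was called higher and 0 lower without the block, a share near the 2.17% of all tested genes. This was INSIG2, the paralogue of INSIG1, which also retains SCAP. INSIG2 had 15.5 and 16.7 CPM in UT, 33.5 and 44.9 CPM in Ni-E and 27.8 and 26.1 CPM in Ni-W cells, so that the Ni-W libraries lay between the other groups with no overlap. Its log2 fold change for Ni-E against UT was 1.28 without the block (SE 0.21, adjusted p = 0.0493 in edgeR), which stood at the threshold, and 1.28 with the block (SE 0.15, adjusted p = 0.000212). The call without the block was kept in DESeq2 and without a filter, and was lost under RLE size factors, with at least 10 counts, in limma, with only the 2 groups and without any of the 6 libraries. For Ni-W against UT the log2 fold change was 0.74 without the block (adjusted p = 0.280) and 0.75 with it (SE 0.15, adjusted p = 0.0094). INSIG1 and INSIG2 thus lay on opposite sides of UT in all 4 nickel-treated libraries.

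With the block, 6 of the 48 genes were called for Ni-E against UT, 5 higher and 1 lower, 3 for Ni-W against UT and 2 for Ni-W against Ni-E. Beside the 12.6%, 8.57% and 4.52% of all tested genes, these counts are no more than the background, and the genes are given as values. Beside INSIG2, STARD4, a carrier of sterols between membranes, rose by 1.81 on the log2 scale (SE 0.20), from 5.10 and 3.42 CPM in UT to 15.4 and 13.7 CPM in Ni-E cells. ME1, the malic enzyme that supplies NADPH for lipid synthesis, rose by 0.91 (SE 0.17), from 12.5 and 11.4 to 21.3 and 23.3 CPM. ABCA1, the cholesterol exporter, rose by 1.10 (SE 0.23), but its groups overlapped. It had 11.3 and 3.49 CPM in UT and 22.5 and 7.98 CPM in Ni-E cells. Without the block its log2 fold change was 1.05 (SE 0.97, adjusted p = 0.894 in edgeR). The log2 difference of ABCA1 between the replicates, at -1.87, was larger in size than its rise. APOE, a lipoprotein carrier, fell by 1.55 (SE 0.33), at 2.52 and 3.53 CPM in UT and 1.21 and 0.91 CPM in Ni-E cells. For Ni-W against UT, INSIG2 and STARD4 (1.08, SE 0.21) were higher and LPIN1, a phosphatidate phosphatase, was lower (-0.94, SE 0.14). For Ni-W against Ni-E, 1 was lower and 1, APOE, higher (1.91). In edgeR with all libraries and no block, INSIG2 was the 1 of these called. Without the block STARD4 was also called for Ni-E against UT in DESeq2, without a filter, with only the 2 groups and without Ni-W replicate 2, and APOE for Ni-W against Ni-E in DESeq2.

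SCAP, the escort of the SREBPs, was not called by the 1.5-fold rule in either fit. It had 157 and 148 CPM in UT, 150 and 126 CPM in Ni-E and 132 and 126 CPM in Ni-W cells, and a log2 fold change of -0.24 for Ni-W against UT with the block (adjusted p = 0.161). Of the 15 other enzymes of cholesterol synthesis, 0 were called by the 1.5-fold rule in any comparison or fit. By the adjusted p alone with the block, 2 of the 15 were lower for Ni-W against UT, beside 4.18% of all tested genes. In that fit 12 of 15 were below 0, as were 7386 of the 14502 tested genes. Their median log2 fold change was -0.20 beside -0.01 over all genes.

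The mean profile of the 5 enzymes and INSIG1 over the 6 libraries was compared with all genes of at least 5 TPM on average. The nearest of 10209 such genes, by the root mean squared difference of centred log2 CPM, were ATP6V1H (0.0377), RCN2 (0.0443), TIMM17A (0.0451), BPNT1 (0.0454) and RTN4 (0.0454), beside a median of 0.319 over these genes. All 5 were highest in UT replicate 1 and lowest in Ni-W replicate 2, as was the mean profile. The 5 enzymes and INSIG1 are part of that mean, which draws it towards them, while SREBF1 and SREBF2 are not. Among the averaged genes IDI1 (0.0498) and SQLE (0.0629) were nearest, and MSMO1 (0.277) was the farthest, so that not all of them shared the profile closely. SREBF2 had 0.113 and SREBF1 0.331.

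In BEAS-2B cells the promoters of all 8 genes carried H3K4me3. The deposited RPKM covers 2 kb on each side of the start, and in UT cells the 8 genes were above 69.0% (MSMO1) to 92.3% (IDI1) of all promoters. The IDI1 window also holds the start of WDR37, a divergent gene, and non-coding transcripts start within 2 kb of SQLE, INSIG1 and SREBF2, so that their reads cannot be told apart. With 1 library per group no test was made, and the 95% Wilson intervals below cover counting error only. Levels were scaled by the median promoter of the library, which was 1.57 RPKM in UT, 1.39 in Ni-E and 1.12 in Ni-W cells, and the chromatin dynamic score is the difference of the square roots of the scaled levels.

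**Figure D4:**
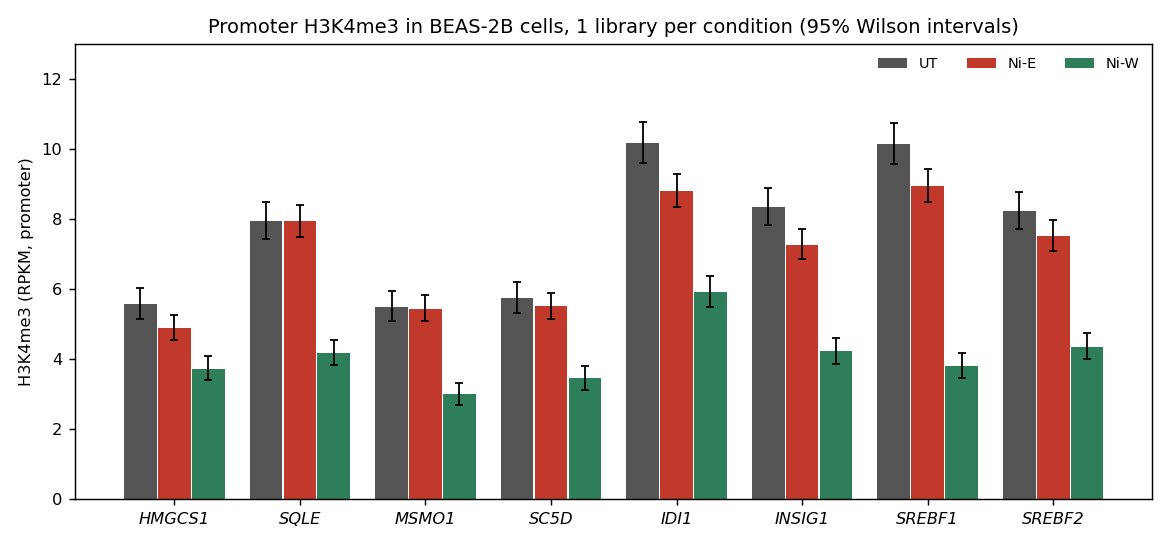
Promoter H3K4me3 in RPKM (y axis, from 0) of the 8 genes (x axis) in the single UT, Ni-E and Ni-W libraries of BEAS-2B cells, before median scaling, with 95% Wilson intervals for counting error. The Ni-W bars are the lowest for all 8 genes, and the largest drop is that of SREBF1, from 10.1 to 3.79 RPKM.

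In Ni-E cells the promoters differed little from UT. SREBF1 had 10.1 RPKM in UT (95% CI 9.58 to 10.7) and 8.94 in Ni-E cells (8.48 to 9.43), IDI1 10.2 and 8.81, INSIG1 8.34 and 7.26, and SREBF2 8.24 and 7.51 RPKM. SQLE had 7.94 and 7.93 RPKM, MSMO1 5.49 and 5.43, SC5D 5.73 and 5.50, and HMGCS1 5.57 and 4.88 RPKM. After scaling, 4 of 8 scores were above 0, beside 10832 of 13935 promoters with at least 1 RPKM, and 0 of 8 were past 1.5-fold, beside 1.41% of these promoters. The scores of SQLE (0.14) and MSMO1 (0.11) were past the counting range of 0.10, but were -0.0012 and -0.011 without median scaling.

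In Ni-W cells all 8 promoters had less H3K4me3 than in UT cells, in a library where 10999 of the 14059 promoters with at least 1 RPKM had a score below 0. SREBF1 had 3.79 RPKM (95% CI 3.46 to 4.16), a score of -0.70 against UT, below all but 0.324% of the 26237 promoters. At an equal fold the score grows with the starting level, and SREBF1 stood above 92.3% of all promoters in UT cells. Its rank was not taken within the promoters that started from 5 RPKM or more, whose scores ran down to -1.03. After median scaling SREBF1 was 1.91-fold lower, and it was the single member past 1.5-fold. By that measure 18.4% of the promoters with at least 1 RPKM were lower, and 18.5% of those with at least 5 RPKM in UT cells, the range of the 8 genes.

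INSIG1 had 4.22 RPKM in Ni-W cells (95% CI 3.87 to 4.60), a score of -0.36 and a level 1.41-fold lower than in UT cells after scaling. SREBF2 had 4.34 RPKM (score -0.32) and SQLE 4.17 RPKM (score -0.32). IDI1 had 5.91 RPKM (score -0.25), MSMO1 2.99 RPKM (score -0.24) and SC5D 3.44 RPKM (score -0.16). HMGCS1 had 3.73 RPKM, and its score of -0.06 was within the counting range of 0.11. The median score of the 8 genes was -0.28, beside -0.20 for promoters with at least 1 RPKM in either library, -0.26 for those with at least 5 RPKM in UT cells, a filter that favours a lower level in Ni-W, and -0.03 for all promoters. SC5D, at 0.04, was among the genes whose score turned above 0 after quantile normalization, where SREBF1 had -0.51 and INSIG1 -0.16.

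Against Ni-E cells, the Ni-W scores of all 8 genes were below 0, and 2 of 8, SREBF1 (1.90-fold lower) and SQLE (1.53-fold lower), were past 1.5-fold, beside 30.5% of the promoters with at least 1 RPKM. Among the other pathway genes, 47 had a promoter value. For Ni-W against UT, 15 of the 47 were past 1.5-fold lower and 0 higher, where 18.4% of the promoters with at least 1 RPKM were lower. The 47 were not filtered by level, and LPIN1, among the 15, had 0.264 RPKM in UT and 0.125 in Ni-W cells. After scaling, SCAP was 1.21-fold and INSIG2 1.19-fold lower.

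Side by side, SREBF1 had a log2 fold change of -0.36 for its mRNA in RT4 Ni-W cells with the block and a score of -0.70 for its promoter in BEAS-2B Ni-W cells, and INSIG1 had -0.56 and -0.36. SREBF2 had -0.01 and -0.32. These are measures of different kinds in different lines after different washout times, and no comparison was made between them.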

How the data were processed

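RT4 RNA-Seq and BEAS-2B H3K4me3 ChIP-Seq were analysed from the deposited tables. For RNA-Seq, the authors deposited estimated counts, TPM and FPKM per gene from RSEM, whose version is not given in the sources used here. The methods name hg19, and the submitters' processing notes also name GRCh38. The deposited estimated counts, of which 97.9% to 98% were whole, were rounded and tested with edgeR (4.0.16, limma 3.58.1, R 4.3.3) in its quasi-likelihood test, with TMM factors and its expression filter, in 1 model of the 6 libraries, and p-values were adjusted by Benjamini-Hochberg over 14502 genes. TPM values deposited by the authors were used for levels between genes, and their FPKM values were not used. The methods used DESeq2, which was run here (1.42.0) as an alternative. The RPKM of each promoter, deposited by the authors, came from ChIP-Seq alignments to hg38. Reads were recovered from the steps of the RPKM values, 100% of which came out whole within 0.1 reads, for 95% Wilson intervals. Read counts have no molecular identifiers, so that intervals cover counting error only.

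The number in the titles (a suffix Dup for replicate 2) is shared by the groups. The deviations of libraries with the same number from their group means correlated at 0.66, 0.76 and 0.69 over the 14502 genes, and the number was therefore used as a block in a second fit. Whether it marks a shared day or batch is not stated in the labels.

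The 8 genes and the lists were chosen with earlier results of these data known. Named genes were the 8 genes, pathway genes called in a comparison or holding a control point (such as INSIG2 and SCAP), and the 5 genes nearest to the mean profile. Some genes of the lists enter the counts, but their values are not reported here. EBP and the RefSeq windows of INSIG1 and SREBF1 were chosen after their values were seen. Added after the data were seen were the rule of the adjusted p alone with the block, the alternatives within the block, the replicate comparison and the filter at 5 RPKM. Scripts were tested on simulated data. Figures and tables were made with Python 3.11.15. ChIP input was not analysed here.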

Additional observations from a re-analysis of the deposited data

How the results depend on the processing

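With the 1.5-fold rule, 0 of the 8 genes were called under every alternative run but 1, the block without Ni-W replicate 1, where INSIG1 was called for Ni-W against UT (0 to 1 without a library). With the replicate block and the adjusted p alone, the count was 2 of 8 for Ni-W against UT. It was 0 for Ni-E against UT and 0 for Ni-W against Ni-E. Each count moved with the library left out, as did the number over all tested genes. The cause of the changes below was not tested. The other pathway genes called for Ni-E against UT were 1 in the reported fit, 0 under RLE size factors, with at least 10 counts in every library and in limma on log2(TPM + 1), 2 without a filter and in DESeq2, 6 with the replicate block, 10 with the block and the adjusted p alone, and 0 to 1 without a library. For Ni-W against UT they were 0, with 3 and 7 under those 2 block rules, and for Ni-W against Ni-E 0, with 2 and 3 under them and 1 in DESeq2. All genes called for Ni-E against UT numbered 314, and 209 with at least 10 counts, 170 in limma, 734 in DESeq2, 1833 and 2579 with the block rules, and 0 to 320 without a library (0 without either Ni-E library). For Ni-W against UT they numbered 87, and 193 without a filter, 54 with at least 10 counts, 0 with only the 2 groups, 437 in DESeq2, 1243 and 1693 with the block rules, and 0 to 38 without a library. For Ni-W against Ni-E they numbered 0, and 14 without a filter, 139 in DESeq2, and 655 and 853 with the block rules. Where 1 library of a group was left, it was assumed to vary like the others. With all 6 libraries, the block changed no other call of the 8 genes.

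Without the block, log2 fold changes that did not pass the test turned their sign when a library was left out. The exceptions were INSIG1 and SREBF1 for Ni-E and Ni-W against UT and IDI1 for Ni-W against UT, which stayed below 0. With the block, fewer of them turned. SQLE then stayed below 0 for Ni-E against UT (-0.31 to -0.03) and for Ni-W against UT (-0.25 to -0.06). HMGCS1 still turned for Ni-E against UT (-0.17 to 0.25). The ranges below are those without the block. For Ni-E against UT the ranges without a library were -0.27 to 0.36 for HMGCS1, -0.39 to 0.055 for SQLE, -0.26 to 0.19 for MSMO1, -0.40 to 0.11 for SC5D, -0.24 to 0.11 for IDI1 and -0.10 to 0.22 for SREBF2. For Ni-W against UT they were -0.60 to 0.23 for HMGCS1, -0.44 to 0.083 for SQLE, -0.16 to 0.019 for MSMO1, -0.49 to 0.31 for SC5D and -0.21 to 0.17 for SREBF2, which was also 0.038 in limma. For Ni-W against Ni-E they were -0.60 to 0.22 for HMGCS1, -0.25 to 0.27 for SQLE, -0.26 to 0.19 for MSMO1 (0.0099 in limma), -0.32 to 0.48 for SC5D, -0.41 to 0.014 for IDI1, -0.54 to 0.033 for INSIG1, -0.37 to 0.063 for SREBF1 and -0.25 to 0.13 for SREBF2.

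For H3K4me3, the number of the 8 genes with a score above 0 for Ni-E against UT was 4, and 0 without median scaling and on the log2 ratio of RPKM + 1, where SQLE had -0.0012 and -0.0011 and MSMO1 -0.011 and -0.012. After quantile normalization it was 2 in place of 0 for Ni-W against UT, with SC5D at 0.044, and 3 in place of 0 for Ni-W against Ni-E, with SC5D at 0.043 and IDI1 at 0.086. With 1 ChIP library per group, differences between cultures cannot be seen.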
